A study of Mus musculus with 16 samples.

Results

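The Reg genes encode the regenerating proteins, small secreted lectins of the pancreas and gut. The 6 mouse genes Reg1, Reg2, Reg3a, Reg3b, Reg3d and Reg3g were taken by name from a deposited table of 10208 genes, and all 6 had a row of their own. They were studied in adult mouse islets, the clusters of hormone cells of the pancreas, in a design meant to switch off insulin production. The groups were labelled Cre+T with 7 samples and Cre-T with 9 samples, both given tamoxifen 6 days before islet isolation. The labels give every sample the genotype Ins1-/-:Ins2f/f:Pdx1CreERT:mTmG on a mixed, mostly C57Bl/6 background. Both groups therefore lack Ins1 and carry an Ins2 gene flanked by recombination sites, with mTmG, a fluorescent reporter of Cre activity. CreERT is a recombinase that tamoxifen activates, here under Pdx1 regulatory sequence, which is active in beta cells. The labels list Pdx1CreERT for both groups and do not state whether Cre-T animals carried it, nor whether each sample was 1 animal, nor the animals' exact age or sex.

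Reg proteins carry a single C-type lectin domain behind a signal peptide. In the healthy pancreas they are made mostly by acinar cells, the exocrine cells that secrete digestive enzymes, and their genes are known to be induced in pancreatitis and in stressed or regenerating islets. Reg1 and Reg2 encode the pancreatic stone proteins. Reg3b encodes the pancreatitis-associated protein, Reg3g a lectin that kills Gram-positive bacteria in the gut, and Reg3d is a relative of the hamster islet neogenesis-associated protein. IL-6 and IL-22, which signal through JAK kinases to the transcription factor STAT3, are known inducers of Reg3 genes.

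All 6 genes lie side by side on mouse chromosome 6 (GRCm38), within 98216 bases. From left to right, GENCODE release M21 places Reg3b (ENSMUSG00000071356.5) at chr6:78370657-78373466 and Reg3d (ENSMUSG00000068341.3) at chr6:78375874-78378865. Reg3a (ENSMUSG00000079516.1) follows at chr6:78380709-78383827 and Reg2 (ENSMUSG00000023140.2) at chr6:78395623-78408106. Reg1 (ENSMUSG00000059654.5) lies at chr6:78422711-78428667 and Reg3g (ENSMUSG00000030017.2) at chr6:78466269-78468872. Reg3d and Reg3g are on the minus strand and the other 4 on the plus strand. No other gene is annotated between them. The transcript used for each gene had 6 exons and a coding sequence of 498 to 528 bases.

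The upstream sequences are shown because the 6 neighbours share a direction of change and carry different words near their starts. Each line gives the 200 bases before the RefSeq transcription start, 5′ to 3′ on the gene's own strand, on GRCm38.p6. For Reg1, Reg2 and Reg3b these bases lie inside the GENCODE gene span given above, which begins further up. Capitals mark the E-box word CACCTG and, on either strand, the TATA-box word TATAAA. They also mark both ends of a paired word, described next, with its gap in lower case. The first 2 lines are the stone protein genes and the last 4 the Reg3 genes.
Reg1, chr6:78425783-78425982, plus strand: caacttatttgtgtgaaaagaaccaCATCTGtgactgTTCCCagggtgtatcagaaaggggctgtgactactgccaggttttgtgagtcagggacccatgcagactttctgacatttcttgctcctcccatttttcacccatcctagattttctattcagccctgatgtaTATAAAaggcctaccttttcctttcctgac
Reg2, chr6:78404955-78405154, plus strand: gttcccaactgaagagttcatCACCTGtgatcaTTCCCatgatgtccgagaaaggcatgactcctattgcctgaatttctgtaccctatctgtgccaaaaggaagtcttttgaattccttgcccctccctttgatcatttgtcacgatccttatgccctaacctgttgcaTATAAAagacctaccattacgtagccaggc
Reg3a, chr6:78380509-78380708, plus strand: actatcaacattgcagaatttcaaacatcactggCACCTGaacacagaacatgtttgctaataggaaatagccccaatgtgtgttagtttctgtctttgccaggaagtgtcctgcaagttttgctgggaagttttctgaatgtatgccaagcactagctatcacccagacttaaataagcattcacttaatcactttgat
Reg3b, chr6:78370685-78370884, plus strand: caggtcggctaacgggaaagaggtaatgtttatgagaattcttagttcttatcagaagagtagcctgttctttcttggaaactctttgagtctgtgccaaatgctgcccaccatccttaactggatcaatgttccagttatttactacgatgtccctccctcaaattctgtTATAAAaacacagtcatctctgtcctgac
Reg3d, chr6:78378866-78379065, minus strand: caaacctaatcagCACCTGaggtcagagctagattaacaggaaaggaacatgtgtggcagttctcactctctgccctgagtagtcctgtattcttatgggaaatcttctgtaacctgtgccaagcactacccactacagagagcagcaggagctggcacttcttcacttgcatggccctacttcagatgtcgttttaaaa
Reg3g, chr6:78468875-78469074, minus strand: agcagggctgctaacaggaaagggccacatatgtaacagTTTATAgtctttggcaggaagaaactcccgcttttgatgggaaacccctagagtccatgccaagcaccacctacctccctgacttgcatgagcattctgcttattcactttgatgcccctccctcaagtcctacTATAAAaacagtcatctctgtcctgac

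Motif words were sought on both strands of the 250 bases before the start, in these 6 windows and in all 32851 RefSeq windows of that length. The paired word, the general E-box CANNTG followed after a gap of 6 bases by the word TTCCC, was found in the windows of Reg1 and Reg2 and in 0.295% of all windows. It resembles the paired box bound by PTF1, the master regulator of acinar genes, and its spacing was chosen after these sequences were seen. It spans bases -175 to -159 relative to the start in Reg1 and -179 to -163 in Reg2, where its first part is also a CACCTG, and its last part is also counted as TTCCC. The E-box word CACCTG was present in 4 of the 6 windows (Reg2, Reg3a, Reg3b and Reg3d) and in 17.2% of all windows. Its copy in Reg3b and 1 of the 2 copies in Reg3d lie further up than the bases printed. TATAAA was present in Reg1, Reg2, Reg3b and Reg3g, on the gene's strand 22 to 30 bases before the start, and in 12.4% of all windows. TTCNNNGAA, the word bound by STAT factors, was present in Reg3b and Reg3d and in 7.02% of all windows. TTCCC alone was in all 6 windows and in 56.2% of all windows. A match is a word in the sequence and was not tied to binding by any value here.

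The coding sequences show how far reads could be mixed up between the genes. Reg1 and Reg2 were the closest pair, identical at 82.5% of aligned coding bases. Among the Reg3 genes, identity was 76.4% for Reg3b with Reg3g, 75.2% for Reg3a with Reg3b and 73.3% for Reg3a with Reg3g. Reg3d stood further off, at 66.1% to 66.4% from the other 3 Reg3 genes. Identity was 60.1% to 67.0% between stone protein genes and Reg3 genes. The longest stretch of identical bases shared by any 2 of the transcripts was 35, between Reg3b and Reg3g, and it was 19 between Reg1 and Reg2. No stretch of 50 bases of any of the 6 transcripts occurred in an annotated transcript of another gene, and the reads were 150 bases long.

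**Figure D1:**
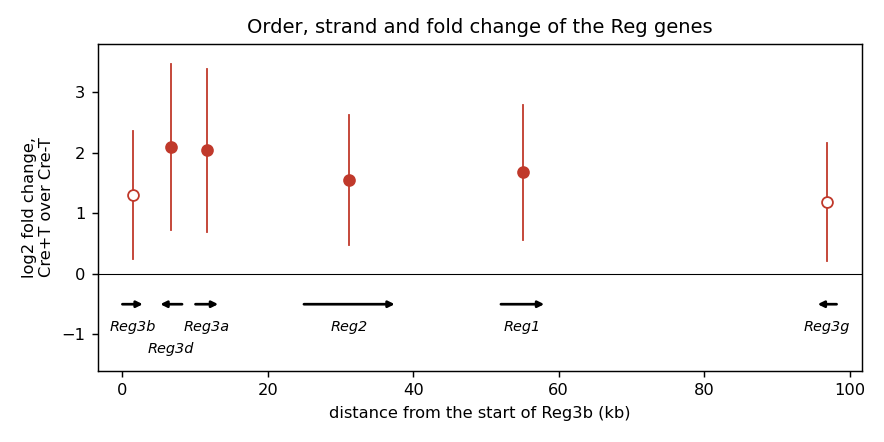
The log2 fold change of each Reg gene (Cre+T over Cre-T, vertical axis, points with 95% intervals) is plotted at the gene's distance in kb from the start of Reg3b (horizontal axis), with arrows for the genes and their strands. Filled points have a limma adjusted p under 0.05; all 6 points lie above 0, between 1.19 and 2.10, and the open ones are the outermost genes Reg3b and Reg3g.

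The values come from a single table of limma results that the authors made. It gives 1 fold change, 1 mean and 1 test per gene, so no value per sample, no spread within a group and no depth per sample can be shown. The labels state a sequencing depth of 20000000 read pairs per sample, which the table cannot check. Each error given here is a standard error, obtained by dividing that fold change by its moderated t, and it covers the spread between the samples of their fit, part of which may be technical. No header says which group is on top of the fold change. Cre+T was taken to be, since Ins2 is negative (-0.47 ± 0.17 log2 units) and Esr1, part of CreERT, strongly positive (9.30 ± 0.39 log2 units) per the authors' deposited table. The direction of every change below rests on that reading. If the Esr1 reads come from CreERT, the groups differed in the recombinase as well as in Ins2, and its own effect was not tested. In these bulk samples, more cells of a type and more RNA per cell cannot be told apart. The islet hormone genes had the highest means among the marker lists, 16.34 log2 CPM (counts scaled to library size) for Ins2, 14.66 for Iapp and 14.13 for Gcg per the authors' deposited table.

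Over both groups, the Reg genes covered a wide range of levels. Per kilobase of transcript, Reg2 stood at 10.23 and Reg1 at 10.13 on the log2 CPM per kb scale, computed from the means per the authors' deposited table. Reg3b followed at 8.93 and Reg3a at 7.06 on the same scale. Reg3d at 5.81 and Reg3g at 5.55 were the lowest. Reg1 ranked 70 and Reg2 ranked 77 by mean log2 CPM among the 10208 genes of the authors' deposited table, so the stone protein transcripts were among the most abundant of these islet samples. Reg3b ranked 254, Reg3a 1648, Reg3d 4507 and Reg3g 5210 per the authors' deposited table. Reg2 and Reg1 lay close to each other per kb, as did Reg3d and Reg3g. The standard errors of the fold changes do not measure the error of such gaps in level. No spread over samples was available to test the order.

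Group levels can only be approximated from the mean and the fold change, taking all 7 and 9 samples as having entered the fit. On that basis Reg1 stood near 10.69 log2 CPM in Cre+T islets and 9.02 in Cre-T islets. Reg2 stood near 10.58 in Cre+T and 9.03 in Cre-T. The stone protein genes were thus almost level with each other in each group. Reg3b was near 9.31 log2 CPM in Cre+T and 8.005 in Cre-T, and Reg3a near 7.93 in Cre+T and 5.89 in Cre-T. The scarcer Reg3d was near 6.64 in Cre+T and 4.54 in Cre-T. Reg3g was near 5.84 in Cre+T and 4.65 in Cre-T, so that Reg3d was above Reg3g in Cre+T and slightly below it in Cre-T by these estimates.

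Of the 6 Reg genes, 4 rose in Cre+T islets at a limma adjusted p under 0.05 per the authors' deposited table, none fell, and Reg3b and Reg3g did not pass. Among all genes 17.6% were called higher and 20.1% lower per the authors' deposited table. The share of higher genes among those called was 46.7% there. It was 30.7% when fold changes were centred on the median of the ribosomal protein genes, and 17.9% with summed expression made equal in both groups, which shifts every log2 fold change, and so the median of all genes, by 0.14. The Reg fold changes were 1.04 to 1.96 log2 units after that shift, and the same 4 genes passed under either scaling.

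The stone protein genes changed by about the same amount. Reg1 rose 3.20-fold, a log2 fold change of 1.68 ± 0.53 with a 95% interval of 0.56 to 2.79 (limma adjusted p = 0.0215), per the authors' deposited table. Reg2 rose 2.93-fold, by 1.55 ± 0.51 log2 units with an interval of 0.47 to 2.63 (limma adjusted p = 0.0263), per the authors' deposited table. Their fold changes differed by 0.13 log2 units, less than either error.

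The Reg3 genes held both the largest and the smallest changes of the family. Reg3d, the relative of hamster INGAP, rose 4.28-fold, by 2.10 ± 0.65 log2 units with an interval of 0.73 to 3.47 (limma adjusted p = 0.0196), per the authors' deposited table. Reg3a rose 4.11-fold, by 2.04 ± 0.64 log2 units with an interval of 0.69 to 3.39 (limma adjusted p = 0.0212), per the authors' deposited table. Reg3b, the pancreatitis-associated protein gene, was at 1.30 ± 0.50 log2 units with an interval of 0.24 to 2.36, and missed the threshold at a limma adjusted p of 0.0508 per the authors' deposited table. Reg3g was at 1.19 ± 0.46 log2 units with an interval of 0.21 to 2.16, and missed it at a limma adjusted p of 0.0522 per the authors' deposited table. Both lay close to the threshold, with unadjusted p of 0.0192 for Reg3b and 0.0199 for Reg3g in that limma fit.

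The 6 fold changes could not be told apart. The gap between the largest (Reg3d) and the smallest (Reg3g) was 0.91 log2 units, and the 95% intervals overlapped in all 15 pairs of genes. In 9 of the 15 pairs the difference was smaller than the smaller of the 2 standard errors. The samples are shared by all 6 genes, and a difference between genes could not be tested without values per sample. That Reg3d and Reg3a passed while Reg3b and Reg3g did not is therefore no sign of a difference between them.

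**Figure D2:**
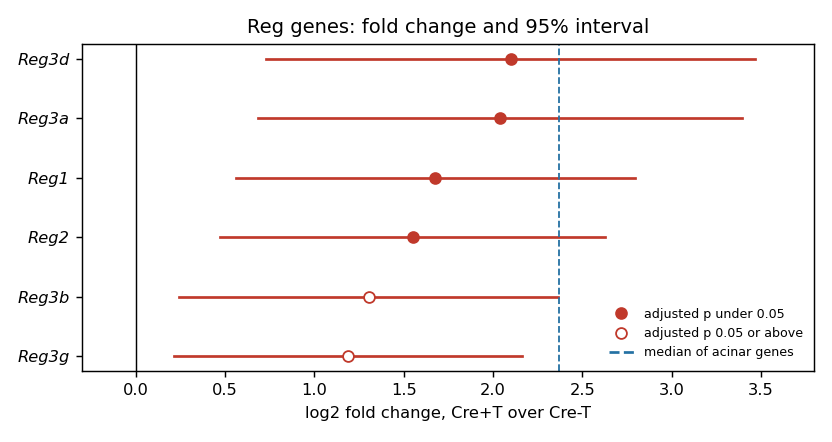
Points are log2 fold changes (Cre+T over Cre-T, horizontal axis) of the 6 Reg genes per the authors' deposited table, with 95% intervals as lines; filled points have a limma adjusted p under 0.05. All intervals lie above 0 and overlap each other, and the dashed line marks the median of 40 acinar genes at 2.37.

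The changes were large among all genes of the table, and so were their errors. By fold change, Reg3d ranked 65, Reg3a 74, Reg1 113, Reg2 136, Reg3b 185 and Reg3g 214 from the top of 10208 genes per the authors' deposited table. By unadjusted p the same genes ranked between 2610 (Reg3d) and 3900 (Reg3g) in that limma fit. The standard errors of the Reg genes ran from 0.46 to 0.65 log2 units, against a median of 0.10 over all genes. Reg3a may be set beside the 1568 genes of the table, itself included, whose mean lay within 0.5 log2 CPM of its own. Their median standard error was 0.08, and 3 of them had an error at least as large as that of Reg3a. A fold change at least as large, each Reg gene included, was held by 3 of 1568 such genes for Reg3a and 2 of 2509 for Reg3d. The counts were 5 of 295 for Reg3b, 21 of 2527 for Reg3g, 11 of 62 for Reg1 and 12 of 65 for Reg2. The changes of Reg1 and Reg2 were thus less unusual for their abundance. Apart from Reg1, Reg2 and Ttr, however, every gene in their counts was a digestive enzyme gene of the acinar list. For Reg1, 11 of 62 genes of like mean had an error as large, and for Reg3g 21 of 2527. Apart from Reg1 itself and Spp1, those counted for Reg1 were again acinar enzyme genes. The table does not show which samples these errors come from.

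**Figure D3:**
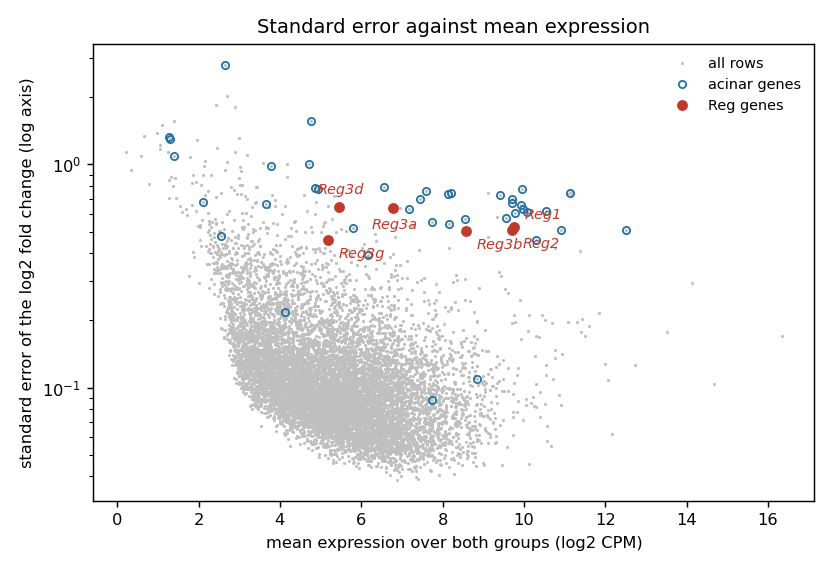
The standard error of the log2 fold change (vertical axis, log scale) is plotted against the mean over both groups in log2 CPM (horizontal axis) for all 10208 genes (grey), 40 acinar genes (blue rings) and the 6 Reg genes (red). The Reg genes, at 0.46 to 0.65, lie above most grey points of like mean and among the acinar genes.

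Acinar genes were higher in the same islets. Of 49 acinar genes listed, 40 had a row, of which 36 rose and none fell past a limma adjusted p of 0.05, with a median of 2.37 log2 units per the authors' deposited table. Their summed level was approximated at 15.77 in Cre+T and 13.64 in Cre-T on the log2 CPM scale. Among 25 digestive enzyme genes 24 rose, with a median of 2.52 log2 units per the authors' deposited table, and 23 under either other scaling. They included the ribonuclease gene Rnase1 (3.20 ± 0.76), the lipase gene Pnlip (3.19 ± 0.77), its cofactor Clps (2.99 ± 0.75) and the carboxypeptidase gene Cpb1 (2.93 ± 0.73 log2 units) per the authors' deposited table. The most abundant were the chymotrypsinogen gene Ctrb1, at 1.72 ± 0.51 log2 units with a mean of 12.51 log2 CPM, and the amylase gene Amy2a5, at 2.77 ± 0.74 with a mean of 11.13, per the authors' deposited table. The amylase genes have near-identical copies that share reads, so their single values are uncertain.

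Of 12 other acinar genes 10 rose, with a median of 2.23 log2 units per the authors' deposited table. They included the cholecystokinin receptor gene Cckar (1.90 ± 0.48) and the granule genes Zg16 (3.02 ± 0.79), Gp2 (2.09 ± 0.55) and Sycn (1.80 ± 0.54 log2 units) per the authors' deposited table. The endoplasmic reticulum protein gene Erp27 rose by 2.37 ± 0.67 log2 units, while Rab3d, which islet cells also express, was at 0.13 ± 0.09 and did not pass per the authors' deposited table. Rab3d was just below 0 with summed expression made equal. Of 3 measured acinar transcription factors 2 rose. Rbpjl, an acinar partner of PTF1, rose by 3.70 ± 1.33 log2 units per the authors' deposited table. Its mean over both groups was low, at 1.27 log2 CPM per the authors' deposited table. Xbp1, a regulator of secretory capacity used in many cells, rose by 0.33 ± 0.11 log2 units per the authors' deposited table, a call lost under both other scalings (limma-based adjusted p = 0.0663 and 0.171). Gata6 was at 0.42 ± 0.22 and did not pass per the authors' deposited table. Ptf1a was not analysed here.

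Set beside the acinar genes, the Reg genes had smaller fold changes than most, a comparison with no test of its own. The fold change of each Reg gene lay below the acinar median, by 0.27 log2 units for Reg3d, 0.33 for Reg3a, 0.69 for Reg1, 0.82 for Reg2, 1.06 for Reg3b and 1.18 for Reg3g. Of the 40 acinar genes, 26 had a larger fold change than Reg3d, 34 a larger one than Reg1 and 37 a larger one than Reg3g. The 95% intervals of the Reg genes overlapped those of 38 to 40 of the 40 acinar genes. The part of the acinar change in that of the Reg genes was not tested, since values per sample would be needed.

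**Figure D4:**
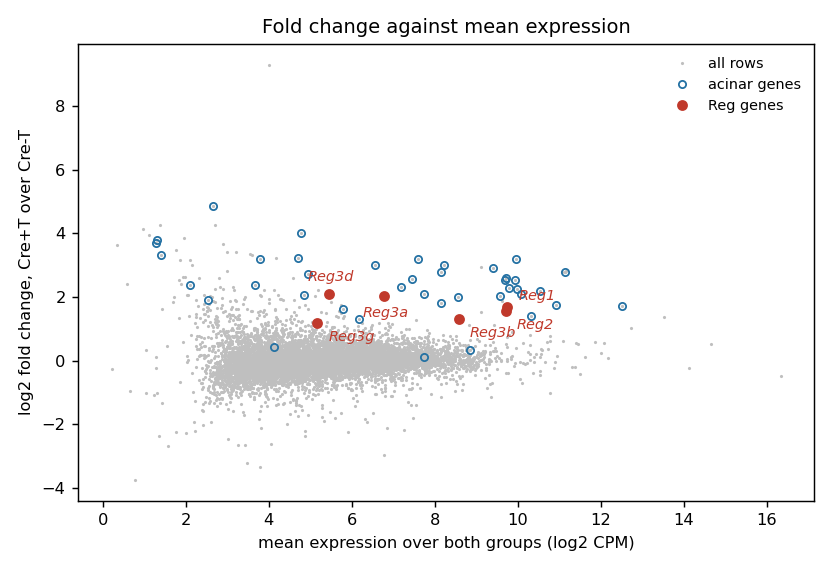
The log2 fold change (Cre+T over Cre-T, vertical axis) is plotted against the mean over both groups in log2 CPM (horizontal axis) for all 10208 genes (grey), 40 acinar genes (blue rings) and the 6 Reg genes (red). The Reg genes lie between 1.19 and 2.10, below most acinar genes, whose median is 2.37.

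Markers of other cell types moved in the same comparison, and their part in the Reg result was not tested. Red cell genes rose in 3 of 4 measured genes, with a median of 3.37 log2 units per the authors' deposited table and a summed level near 7.43 in Cre+T and 4.11 log2 CPM in Cre-T. They were Hbb-bs (3.22 ± 0.87), Hba-a1 (3.32 ± 1.02) and Hba-a2 (3.42 ± 1.10 log2 units), while Hbb-bt (3.42 ± 1.32) did not pass per the authors' deposited table. Globin copies are near-identical, so these values are uncertain. Macrophage markers, with a summed level near 7.73 in Cre+T and 6.86 in Cre-T, rose in 2 of 6 genes, the complement gene C1qa (1.21 ± 0.18) and the MHC class II chain gene Cd74 (1.35 ± 0.25 log2 units) per the authors' deposited table. Lyz2 (0.61 ± 0.25), C1qb (0.34 ± 0.16), C1qc (0.24 ± 0.17) and Cd68 (-0.35 ± 0.17) did not pass per the authors' deposited table. Cd68, the 1 macrophage marker below 0, was called lower under equal sums (limma-based adjusted p = 0.025). C1qc and Cd68 here, and Pias3 among the STAT3 targets, were named after their values were seen.

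Endothelial markers rose in 1 of 8 genes, Plvap (0.995 ± 0.24 log2 units), with a list median of 0.32 per the authors' deposited table. Cdh5 (0.41 ± 0.20), Tie1 (0.39 ± 0.22), Pecam1 (0.38 ± 0.23), Kdr (0.02 ± 0.21) and Flt1 (0.16 ± 0.20) did not pass per the authors' deposited table, and Kdr was below 0 once summed expression was equal. The summed endothelial level was near 9.21 in Cre+T and 8.85 log2 CPM in Cre-T. Duct markers, the other epithelial cells of the exocrine pancreas, had no gene that rose among 7. The keratin gene Krt7 fell (-0.29 ± 0.11 log2 units), while Spp1 (-1.15 ± 0.58), Sox9 (1.11 ± 0.49) and Muc1 (0.59 ± 0.33) did not pass per the authors' deposited table. Their summed level was near 10.02 in Cre+T and 10.64 log2 CPM in Cre-T.

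Beta-cell markers rose in 7 of 11 genes, with a median of 0.57 log2 units per the authors' deposited table, and Ins2 was the 1 that fell. Their summed level was near 16.70 in Cre+T and 16.89 log2 CPM in Cre-T. Ins2, with a mean of 16.34 log2 CPM over both groups, made up most of that sum, and 10 of the 11 markers were positive. The prohormone convertase gene Pcsk1 (0.92 ± 0.12), Ucn3 (0.87 ± 0.17), Pdx1 (0.57 ± 0.11) and the amylin gene Iapp (0.54 ± 0.10 log2 units) had the smallest p per the authors' deposited table. Other islet hormone cells had 2 genes that rose and 2 that fell among 10, with a median of -0.19 per the authors' deposited table. Ttr (1.88 ± 0.26) and Gc (0.38 ± 0.15) rose, and Pyy (-0.69 ± 0.18 log2 units) fell, while Gcg (-0.24 ± 0.29) and Ppy (-0.18 ± 0.41) did not pass per the authors' deposited table. Gc lost its call under both other scalings (limma-based adjusted p = 0.0944 and 0.188). The smallest Reg fold change, 1.19 for Reg3g, which did not pass, was above that of each beta-cell marker measured. Its interval of 0.21 to 2.16 held the values of all these markers but Ins2, Nkx6-1 (0.15) and G6pc2 (0.14). A difference between Reg3g and these markers was not tested. Outside that list, the granin gene Chga (1.39 ± 0.18) was above Reg3g and Reg3b, and Scg2 (1.04 ± 0.13 log2 units) was below both.

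**Figure D5:**
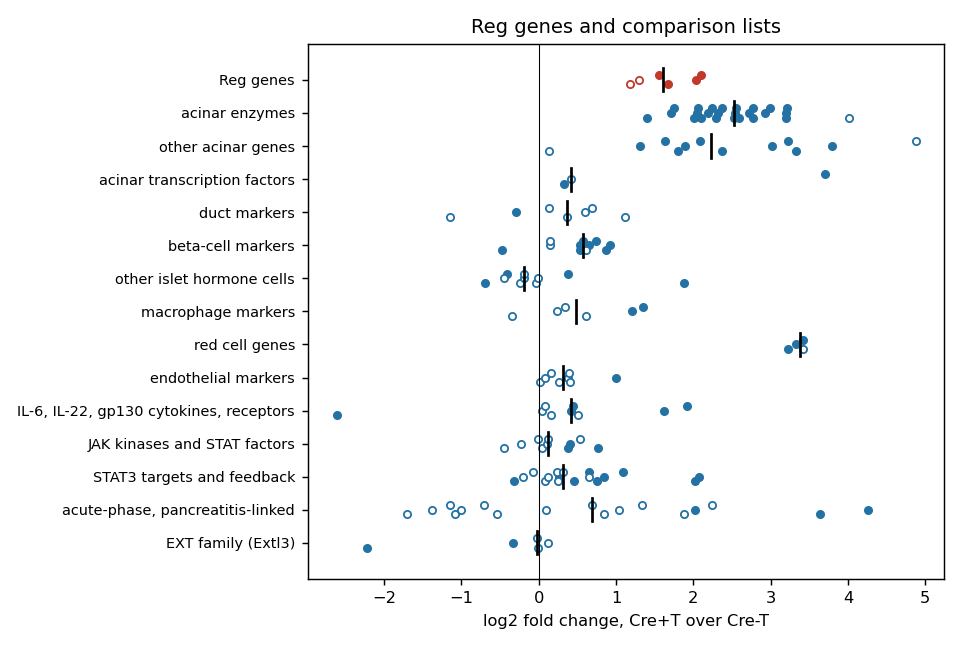
Each point is the log2 fold change (Cre+T over Cre-T, horizontal axis) of 1 gene, with the Reg genes in red in the top row and the comparison lists in blue below; filled points have a limma adjusted p under 0.05 and black bars are medians. The Reg median of 1.61 lies below those of the acinar enzymes (2.52) and red cell genes (3.37), and above those of the duct (0.37), beta-cell (0.57) and macrophage (0.48) lists.

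The pathway known to induce Reg3 genes was examined from cytokine to target. Among 9 measured cytokine and receptor genes, 4 rose and 1 fell, with a median of 0.41 log2 units per the authors' deposited table. The receptor gene for oncostatin M, Osmr, rose by 1.63 ± 0.46, Lifr by 0.45 ± 0.12 and the IL-6 receptor gene Il6ra by 0.41 ± 0.09 log2 units per the authors' deposited table. The cytokine gene Il6 itself, the fourth that rose and named after its value was seen, was at 1.91 ± 0.70 log2 units per the authors' deposited table. Its mean over both groups was 3.20 log2 CPM per the authors' deposited table. The related cytokine gene Il11 fell, at -2.61 ± 0.60, and the shared receptor subunit gene Il6st (0.09 ± 0.11) did not pass per the authors' deposited table. Il6st was at -0.06 once summed expression was equal. Il22 and its receptor gene Il22ra1 were not analysed here.

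Of 10 JAK and STAT genes 3 rose and none fell per the authors' deposited table. They were Jak2 (0.77 ± 0.18), Stat3 (0.40 ± 0.10) and Jak1 (0.37 ± 0.08 log2 units), while Tyk2 (-0.22 ± 0.09) did not pass per the authors' deposited table. Tyk2 fell past the threshold under both other scalings (limma-based adjusted p = 0.0211 with the ribosomal centring and 0.00466 with equal sums). The median of all 10 was 0.12 log2 units by the authors' deposited table, but -0.03 once summed expression was equal, where Stat3 no longer passed (limma-based adjusted p = 0.0501). Of 17 STAT3 targets and feedback genes, 8 rose and 1 fell, with a median of 0.32 log2 units per the authors' deposited table. The immediate early gene Junb (1.09 ± 0.28), the cytokine inhibitor gene Cish (0.65 ± 0.16), the survival gene Mcl1 (0.46 ± 0.10) and the phosphatase gene Ptpn11 (0.26 ± 0.06 log2 units) had the smallest p per the authors' deposited table. Under equal sums the call of Ptpn11 was lost (limma-based adjusted p = 0.12), and Pias3, which encodes an inhibitor of STAT3, was called lower (limma-based adjusted p = 0.0306). The feedback inhibitor gene Socs3, picked after its value was seen, was at 0.65 ± 0.26 log2 units and did not pass (limma adjusted p = 0.0583) per the authors' deposited table.

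Other secreted genes of the acute phase or of pancreatitis did not move as 1 group. Of 17 measured, 3 rose and none fell past a limma adjusted p of 0.05, with a median of 0.69 and values from -1.71 to 4.26 log2 units per the authors' deposited table. The serum amyloid gene Saa3 (3.63 ± 0.95), the annexin gene Anxa1 (2.02 ± 0.55) and Itih4 (4.26 ± 1.56 log2 units) rose per the authors' deposited table. All had means over both groups under 3 log2 CPM per the authors' deposited table. The most abundant genes of the list were the chaperone gene Clu (-1.01 ± 0.42) and the pancreatitis-linked stress gene Nupr1 (-0.71 ± 0.33 log2 units), and neither passed per the authors' deposited table. The fibrinogen gene Fgg (-1.71 ± 0.68) did not pass either per the authors' deposited table. Under equal sums, all 3 fell past the threshold, at limma-based adjusted p of 0.0351 for Clu, 0.0355 for Fgg and 0.0430 for Nupr1. Fgg also did so with the ribosomal centring (limma-based adjusted p = 0.0489).

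Extl3, an exostosin family gene whose protein has been proposed as a Reg receptor, was nearly level. It was at 0.12 ± 0.05 log2 units (limma adjusted p = 0.0959) per the authors' deposited table. It was at -0.03 with summed expression made equal. Of the other 4 genes of that family, Extl1 (-2.22 ± 0.31) and Ext1 (-0.33 ± 0.12 log2 units) fell, while Ext2 (-0.01 ± 0.07) and Extl2 (-0.02 ± 0.07) did not pass per the authors' deposited table.

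The nearest measured gene on each side of the cluster did not pass. Ctnna2, a neuronal catenin gene 391 kb to the left, was at 0.08 ± 0.17 log2 units (limma adjusted p = 0.717) per the authors' deposited table. Lrrtm4, a synaptic adhesion gene 1550 kb to the right, was at 0.17 ± 0.33 log2 units (limma adjusted p = 0.703) per the authors' deposited table. Both were scarce, with means of 3.52 and 2.43 log2 CPM per the authors' deposited table.

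The genes most like each Reg gene were found by distance in fold change, standard error and mean, all in log2 units, over the 1 comparison of the authors' deposited table. Reg1 and Reg2 were each other's nearest gene at a distance of 0.13, followed for both by Ttr and the elastase gene Cela3b. Ttr had a similar fold change and mean, but a smaller error of 0.26 per the authors' deposited table. Reg3a was nearest to the pancreatic lipase-related gene Pnliprp2 (distance 0.48), and Sgms2 (0.92) was also among its 3 nearest. Reg3b was nearest to the selenoprotein gene Sepp1 (0.44), then to Dmbt1 (0.59), which encodes a secreted scavenger receptor of epithelia, and Dstn (0.63). Reg3d was nearest to 3 immediate early genes, Egr1 (0.28), Nr4a1 (0.30) and Fos (0.37). Reg3g was nearest to the mRNA-decay gene Zfp36 (0.17), the defensin gene Defb1 (0.24) and the NF-κB subunit gene Nfkb2 (0.24). Acinar genes were thus among the 3 nearest for Reg1, Reg2 and Reg3a, and no gene of the acinar lists was among them for Reg3b, Reg3d and Reg3g. With 1 comparison and no values per sample, such likeness describes 3 numbers per gene and no shared pattern across samples.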

How the data were processed

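Total RNA of islets from 16 samples was made into TruSeq libraries and sequenced on a HiSeq instrument, per the labels' protocols. TopHat2, GRCm38 and limma are named in the submitters' processing notes without versions; counting tool, strand setting and low-gene filter were not given in the sources used here. A table was deposited by the authors, holding a log2 fold change and a mean on the log2 scale, read as log2 CPM because the deposited table's own name gives voom and limma. The deposited columns further hold a score for the moderated t, a log-odds score and 3 columns of probabilities: the p-value, its adjusted form and a q-value. Benjamini-Hochberg adjustment over the 10208 rows gave back the deposited adjusted values, and genes were called at 0.05.

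Standard errors were the fold change divided by t, and intervals used 16.1 degrees of freedom, which the p-values follow. Group levels were the mean plus or minus the fold change weighted by 7 and 9 samples. GENCODE M21 was joined by gene ID, versions ignored (10190 of 10208). Python 3.11.15 with scipy 1.17.1 and Biopython 1.88 was used. Coding identity counts aligned bases of a global alignment. Steps were tested on simulated data.

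The members and the 15 gene lists were chosen with earlier results of these data known, and lists are described by counts and medians without a test. The 80 ribosomal protein genes, used for scaling, had 7 rises, 2 falls and a median of 0.07 log2 units per the authors' deposited table, or 0 rises and 15 falls with summed expression made equal. The text names the 6 Reg genes, Ins2, Pdx1 and Esr1, the 4 genes of smallest p and 2 of highest mean in each list (for the ribosomal list only the counts), the 3 nearest genes of each Reg gene and the flanking genes; others are marked, and some genes that this rule names are not reported here. Alternatives were other thresholds, Holm adjustment, filters on the mean, 1 row per name and 2 scalings. Sample titles begin with numbers that the labels do not explain, and no such number could enter a fit.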

Additional observations from a re-analysis of the deposited data

How the results depend on the processing

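Of the 8 settings tried on the table, only the 2 scalings can alter a fold change, and all 6 Reg genes were positive under both (1.12 to 2.03 log2 units with the ribosomal centring, 1.04 to 1.96 with equal sums). Reg3g has no row where only genes at or above the median mean were kept. At an adjusted p under 0.01 no Reg gene was called (0), the values being 0.0215 for Reg1, 0.0263 for Reg2, 0.0212 for Reg3a and 0.0196 for Reg3d. Under Holm adjustment 0 were called and each adjusted p was 1. At a threshold of 0.1, Reg3b (0.0508) and Reg3g (0.0522) passed as well. Over all genes, 1794 were higher and 2049 lower; the numbers were 756 and 1079 at 0.01, 32 and 106 under Holm, 1096 and 803 among genes at or above the median mean, and 860 and 3934 with summed expression made equal. That equal sum comes from group means of log2 values, so it need not match any difference in total counts. Against the acinar median, no Reg gene moved by more than its standard error when enzymes alone or acinar genes of like mean were used. Among counts and medians of the comparison lists, 71 values moved and 286 did not. Leaving out single samples was not run, since the table holds no values per sample, and for the same reason no effect of 1 sample or of depth could be examined. No paired analysis was possible because the labels give no replicate numbers and the table has no values per sample.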

Other observations

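Of the 460 most abundant genes (8 log2 CPM or more on average), 31 were at least 1 log2 unit higher in Cre+T per the authors' deposited table. Reg1, Reg2 and Reg3b were 3 of them, and 18 were on the acinar lists. The other 10 were 4 further amylase copies (Amy2a1 to Amy2a4), the granin genes Chga and Scg2, Ttr, Sepp1, the epithelial keratin gene Krt8 (1.13 ± 0.32 log2 units) and Dmbt1 (1.54 ± 0.47 log2 units) per the authors' deposited table. This floor and this fold were chosen after the values were seen.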
